A study of Mus musculus with 2 samples.

Results

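Ubiquitin-conjugating enzymes and ubiquitin-specific proteases were taken from the counts by symbol, as every gene whose symbol starts with *Ube2* or with *Usp* followed by a digit. This gave 83 of the 17774 genes with a row, 31 *Ube2* and 52 *Usp* genes. The cells were GFP-positive cones of *Pde6c*.GFP mice, sorted 1 per well from retinae collected at PN24. This line carries the *Pde6c* cpfl1 mutation, which causes cone degeneration, and an eGFP driven by the *Chrnb4* promoter that marks the cones, so the allele and the transgene are shared by both conditions. Uninjected retinae were compared with retinae that had received an intravitreal injection of GSK-J4 at PN14, 10 days before collection, at a final concentration of 10 µM. GSK-J4 is an inhibitor of Jumonji-family demethylases acting on H3K27. The names of the GSK-J4-treated cells hold the word adult, while the labels give PN24, and the number of animals pooled is not given in the sources used here.

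Ubiquitin is joined to proteins in steps. An activating enzyme (E1) charges a conjugating enzyme (E2, most of the *Ube2* genes), and the E2 passes ubiquitin to a substrate, usually with the help of a ligase (E3). Ubiquitin-specific proteases (USPs) cut it off again, so that they edit chains, spare substrates from the proteasome or recycle free ubiquitin. Photoreceptors renew their outer segments throughout life, and protein quality control by the ubiquitin system is a long-standing theme in the study of their degeneration.

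There was 1 library and 1 plate per condition, so the effect of the plate and that of treatment cannot be told apart, no difference has a replicate check and no test was run. The injected GSK-J4 solution held DMSO in saline, and neither library came from sham-injected retinae. The effects of the injection, the vehicle and the drug therefore cannot be told apart either. The filter of the study drops genes seen in fewer than 3 cells, and drops cells with fewer than 200 genes or over 5% mitochondrial counts. It left 82 of the 85 uninjected and 64 of the 66 GSK-J4-treated cells in the deposited counts, with 1113424 and 208578 counts. The study reports more cells of each condition after quality control, and more GSK-J4-treated cells than the deposited counts hold. Uninjected cells held a median of 8118 counts (860 to 98250) and GSK-J4-treated cells 2336 (420 to 15371). The 11 cone markers took 2.59% of all uninjected counts against 0.213% after GSK-J4, where 5 of them, all detected in uninjected cells, had no count and 50 of the 64 cells had no count of any. Olfactory and vomeronasal receptor genes, a measure of background, took 0.624% and 1.43%. The libraries shared no cell name, and 54 well positions were used on both plates. The depth and the marker shares moved with the treatment label, and their part in the results was not tested.

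The members with the highest and the lowest log-fold were *Ube2n* and *Ube2j2*, and the promoters of these genes are shown because they mark the ends of the range. Each cell was scaled to 10000 counts, and log-fold stands for ln(mean + 1) over GSK-J4-treated cells minus ln(mean + 1) over uninjected cells. *Ube2n* lies on chromosome 10 from 95515145 to 95545657 and *Ube2j2* on chromosome 4 from 155943831 to 155959604, both on the plus strand of GRCm38. The sequences are the 250 bases before the RefSeq start of each gene on GRCm38.p6, at chr10:95514912-95515161 for *Ube2n* and chr4:155943563-155943812 for the first of the 2 starts listed for *Ube2j2*, both on the plus strand. Capitals mark each CG, the dinucleotide in which mammalian DNA is methylated.
Ube2n: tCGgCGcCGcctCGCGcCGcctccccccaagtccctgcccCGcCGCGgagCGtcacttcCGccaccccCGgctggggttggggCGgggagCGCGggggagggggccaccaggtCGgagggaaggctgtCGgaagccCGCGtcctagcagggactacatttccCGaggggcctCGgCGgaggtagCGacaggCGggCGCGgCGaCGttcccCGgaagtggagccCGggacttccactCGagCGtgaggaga
Ube2j2: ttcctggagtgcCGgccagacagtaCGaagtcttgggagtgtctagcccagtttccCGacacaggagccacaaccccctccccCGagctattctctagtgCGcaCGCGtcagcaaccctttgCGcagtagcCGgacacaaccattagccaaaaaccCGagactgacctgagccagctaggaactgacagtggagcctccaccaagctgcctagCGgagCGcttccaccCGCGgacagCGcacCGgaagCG
The *Ube2n* window held 32 CG and the *Ube2j2* window 17. CG reads the same on both strands, and at least as many were found in 6.98% and 38.7% of the 13028 promoter windows of the same length for genes with a row. The 65 members with such a window had a median of 23 CG, against 13 over all windows. No methylation or histone mark was measured in these cells, so the windows describe the genes and not their state.

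The filter kept 75 members, 29 *Ube2* and 46 *Usp* genes. Of the 8 removed, *Ube2c* and *Usp11* had no count in any cell, and *Ube2s*, *Usp27x*, *Usp38*, *Usp45*, *Usp51* and *Usp9y* had at most 1 in each library. *Ube2c* and *Ube2s* encode the E2s of the anaphase-promoting complex, which acts in dividing cells. Conditions were compared for genes detected in 10% or more of the uninjected or of the GSK-J4-treated cells, a limit met by 49 members, 17 *Ube2* and 32 *Usp* genes. The limit was reached through the uninjected library alone by 29 of them, through both by 16 and through the GSK-J4-treated library alone by 4. Membership of these classes limits the direction that can be seen. The 6 members beyond 0.3 log-fold lower all came from the first class, whereas 3 of the 6 higher members came from the second and 3 from the last.

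Both families were seen at a low level, mostly as isolated counts. All members together took 3831 counts or 0.344% of the uninjected library (0.333 to 0.355%) and 928 counts or 0.445% of the GSK-J4-treated library (0.417 to 0.474%). Intervals here and below are exact Poisson for counts and Clopper-Pearson for shares of cells, both at 95%, and cover counting error only. *Ube2* genes made up 0.121% and 0.198% and *Usp* genes 0.223% and 0.246% of the counts. *Ube2n* alone supplied 212 of the 928 counts in GSK-J4-treated cells. Without it, a comparison chosen after its values were seen, the members took 0.323% (0.312 to 0.333%) and 0.343% (0.319 to 0.369%), and the *Ube2* genes 0.0997% and 0.0968%. These intervals overlap, whereas those with *Ube2n* do not. A median of 10 members per uninjected cell (1 to 47) and 6 per GSK-J4-treated cell (0 to 20) had a count, or 2 and 3 with every cell thinned to 867 counts. Among all cases of a member seen in a cell, 59.1% in uninjected cells and 79.1% in GSK-J4-treated cells were of 1 count. At the median depth 1 count is worth 1.23 scaled counts in an uninjected and 4.28 in a GSK-J4-treated cell, so that each detection weighs more in the latter.

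Beyond 0.3 log-fold, 6 of the 49 members (12.2%) were lower and 6 (12.2%) higher in GSK-J4-treated cells. Over all 7682 genes that met the 10% limit, 24% were lower and 20.4% higher, so both shares of the members were below the background. Their median log-fold was -0.04, against -0.005 for all genes, and 37 members lay between -0.30 and 0.288. By family, 3 of 17 *Ube2* genes were lower and 3 higher, with a median of -0.09, and 3 of 32 *Usp* genes were lower and 3 higher, with a median of 0.02. The median counts of the 49 members were 44 and 9, close to the 40 and 8 of all genes compared. The split moved with the scaling. With median-ratio size factors, 14 members were lower and 2 higher, while 34% of all genes were lower and 8.14% higher. The median moved to -0.15 for the members and to -0.14 for all genes. The 2 higher members were *Ube2n* at 0.81 and *Ube2o* at 0.32, the latter within the limit before, and no *Usp* gene was beyond 0.3 higher under this scaling. With cells thinned to 1 depth, 7 members met the 10% limit, of which 1 was lower and 4 higher, beside 38% lower and 47.9% higher among 1525 genes.

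**Figure D1:**
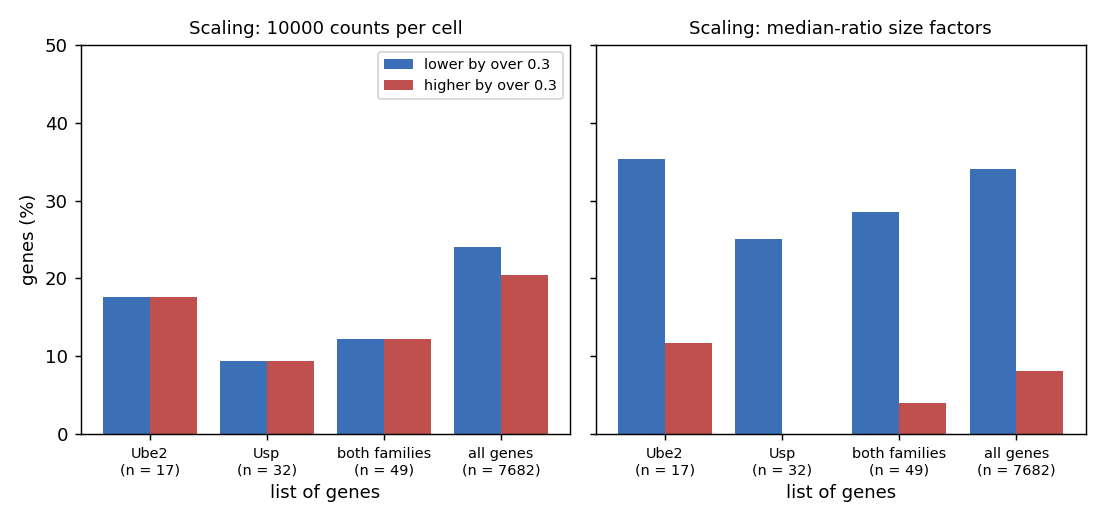
Percent of genes beyond 0.3 log-fold lower (blue) and higher (red) in GSK-J4-treated cells, for *Ube2* genes, *Usp* genes, both families and all genes, with cells scaled to 10000 counts (left) and with median-ratio size factors (right). Both families together stand at 12.2% in each direction on the left, below the 24% and 20.4% of all genes, and the red bars shrink on the right.

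**Figure D2:**
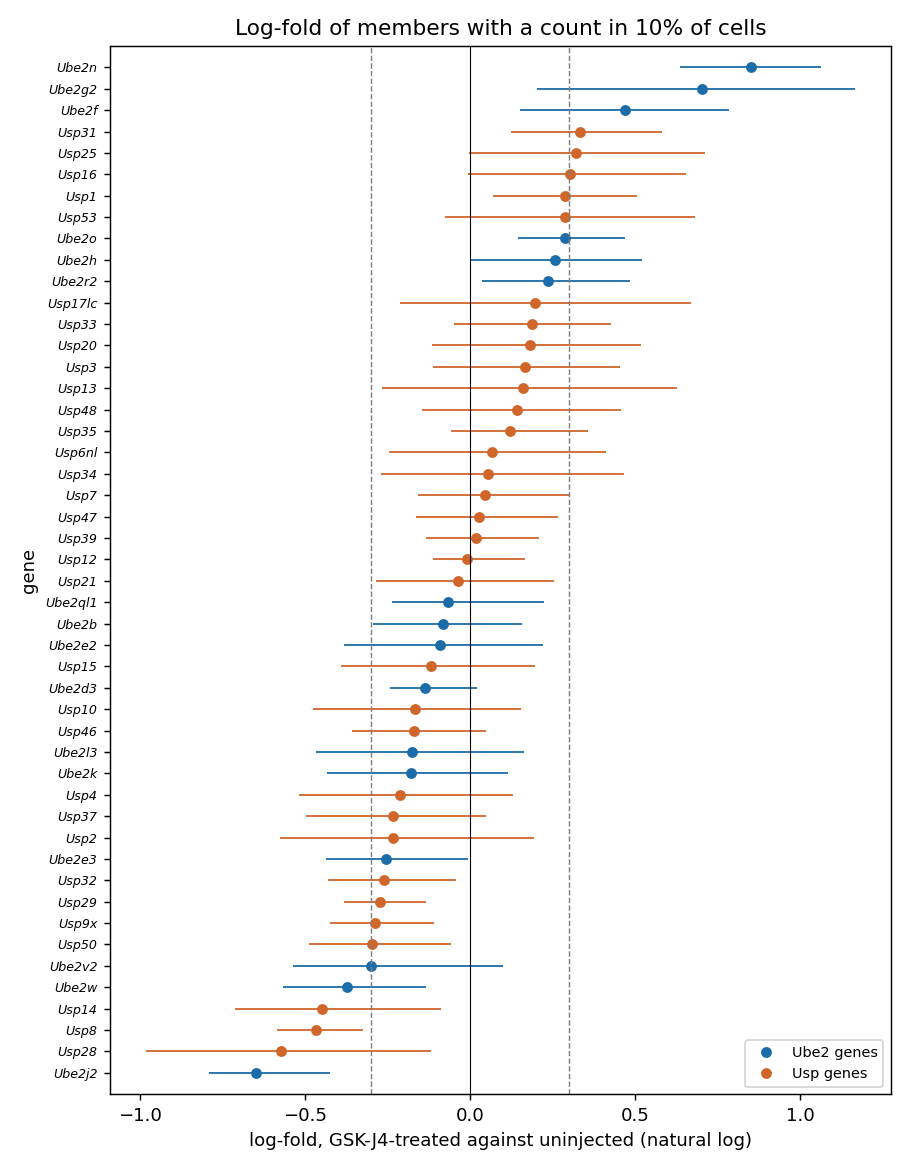
Log-fold (natural log) of members that met the 10% limit. Points are *Ube2* (blue) or *Usp* (orange) genes, lines run between the values with both summed counts at opposite 95% Poisson limits, and dashed lines mark 0.3. *Ube2n*, *Ube2g2* and *Ube2f* lie at the top, and *Ube2j2* at the bottom.

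Lines drawn in this way exclude 0 for 10 of the 12 members beyond 0.3, the exceptions being *Usp16* and *Usp25*. Counting error was large for most genes, as 34 of the 75 members had at most 3 counts in the GSK-J4-treated library and 6 had at least 30. For 18 of the 75 members the interval of the ratio of summed counts, each divided by its library total, excluded 1. These members lay in both directions. The same share over all genes was not worked out, so this count has no background. This summed ratio gives weight to deep cells, whereas the log-fold weighs cells equally, and the pair can differ in direction. Unless stated otherwise, a fold below is the summed ratio with its exact 95% interval.

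*Ube2n*, the E2 that builds K63-linked chains used in DNA repair and inflammatory signalling, had the highest log-fold of the members. Uninjected cells held 238 counts of it (209 to 270.2) and GSK-J4-treated cells 212 (184 to 243), although the latter library held far fewer counts in all. The log-fold was 0.85 and the fold 4.76 (3.93 to 5.75). A count was present in 33 of 82 uninjected cells (40.2%, 29.6 to 51.7%) and in 56 of 64 GSK-J4-treated cells (87.5%, 76.8 to 94.4%). The next member reached 39.1% of GSK-J4-treated cells. With thinning to 867 counts, a count remained in 10 of 81 uninjected cells (12.3%) and in 22 of 50 GSK-J4-treated cells (44.0%), so the share was also higher at equal depth. The counts were spread differently, since 41 of the 56 GSK-J4-treated cells with *Ube2n* (73.2%) held 1 count and 1 cell held 137, while the uninjected cells with a count held a median of 4 and at most 55. Without the cell of highest scaled count in each library, left out in the same way for other genes below, the log-fold was 0.82, while 183 and 75 counts remained and the fold was 2.29 (1.73 to 3.02). The 8 GSK-J4-treated cells without *Ube2n* had a median of 641.5 counts, against 2685 in those with it. Such wide detection was not particular to this gene, as 44 genes were found in at least as many GSK-J4-treated cells, 26 of them in a smaller share of uninjected cells than *Ube2n*. The log-fold was 0.39 in wells of columns 1 to 6 and 1.47 in columns 7 to 12, above 0 on both sides of the plates. The annotation also holds a pseudogene, *Ube2n-ps1*, without a row, and how reads that match both were counted is not given in the sources used here.

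Of the partners of *Ube2n*, *Ube2v2* did not share its value, and *Ube2v1* had too few counts to tell. *Ube2v1* and *Ube2v2* encode inactive E2 variants that pair with its product to make K63-linked chains. *Ube2v2* had 50 counts in uninjected cells but 2 in GSK-J4-treated cells, a log-fold of -0.30 just inside the limit, with a fold of 0.21 (0.02 to 0.81). *Ube2v1* had 15 and 1 counts and was in under 10% of the cells of both libraries, with a log-fold of 0.01 and a fold of 0.36 (0.01 to 2.31). Its exons share 1673 bases with *Gm20431* on the same strand, a gene without a row.

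**Figure D3:**
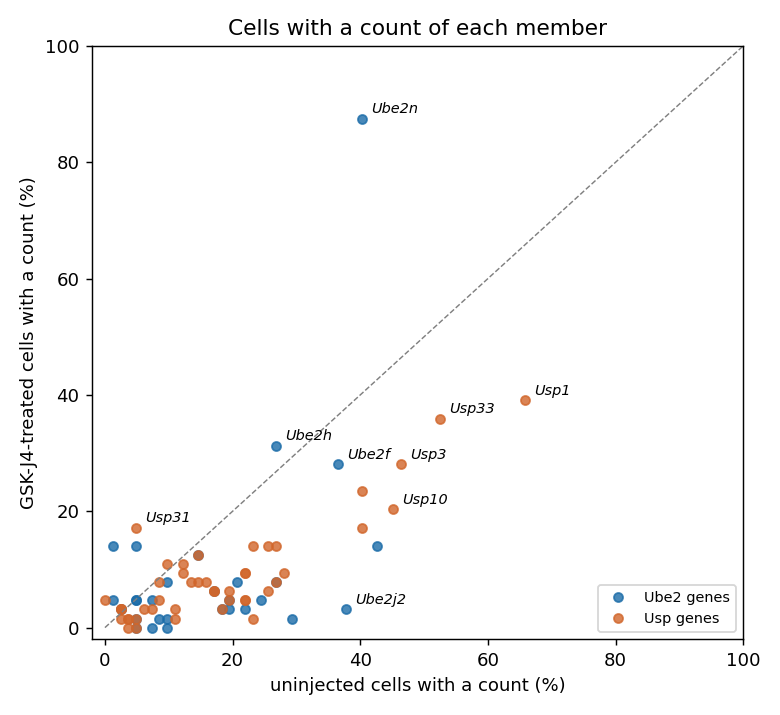
Percent of uninjected (horizontal) and GSK-J4-treated cells (vertical) with a count, for each of the 75 members kept, with equal shares on the dashed line. *Ube2n*, at 40.2% and 87.5%, stands far above the line, while most members lie below it.

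By share of cells, 12 of the 75 members were found in a larger share of GSK-J4-treated than of uninjected cells, and the median member was in 14.6% of uninjected cells and 4.69% of GSK-J4-treated ones. No such count was made over all genes, so these values have no background.

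*Ube2f* lay beyond 0.3 higher, with its counts spread over many cells. The gene, whose product conjugates the ubiquitin-like protein NEDD8 to cullins, had 84 counts in 30 uninjected cells (36.6%) and 41 in 18 GSK-J4-treated cells (28.1%). Its log-fold was 0.47 and its fold 2.61 (1.75 to 3.83), and the highest cells held 13 and 8 counts, so no cell dominated. After thinning, 3 of 81 uninjected cells (3.70%) and 9 of 50 GSK-J4-treated cells (18.0%) had a count, and the log-fold was 0.85. *Ube2m*, the other NEDD8 E2, had 1 and 3 counts.

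The E2s of endoplasmic reticulum-associated degradation, which dispose of misfolded proteins, also differed among themselves. *Ube2j2*, anchored in the membrane of the endoplasmic reticulum, had 138 counts (116 to 163) in 31 uninjected cells (37.8%) and 2 counts (0.242 to 7.22) in 2 GSK-J4-treated cells (3.12%). The log-fold was -0.65, the lowest of the members, and summed counts were 12.9 times as high in uninjected cells (3.51 to 108). It was -0.48 and -0.79 on the 2 sides of the plates and -0.54 without the highest cells. Its paralog *Ube2j1* had 8 counts and 0. *Ube2g2*, a soluble E2 of the same pathway, had 4 counts in 4 uninjected cells and 10 in 9 GSK-J4-treated cells. The log-fold of 0.70 was the second highest of the members and rested on these few counts, with a fold of 13.3 (3.85 to 58.3). With a minimum of 500 genes per cell it was 0.15. Exons of *Ube2g2* share 166 bases with *Gm49325* on the same strand, a gene without a row.

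E2s that act with many ligases were mostly within the limit. Of the *Ube2d*, *Ube2e* and *Ube2w* genes, 7 passed the filter and 4 met the 10% limit. *Ube2w*, which adds ubiquitin to the amino terminus of substrates, had 78 counts in 24 uninjected cells and 7 counts that all lay in 1 GSK-J4-treated cell, with a log-fold of -0.37 and a fold of 0.48 (0.19 to 1.04). *Ube2e2* was among the 5 members with the most counts, with 201 in uninjected cells and 19 in GSK-J4-treated ones. The log-fold was -0.09 and the fold 0.50 (0.30 to 0.81), and 85 of the 201 counts came from 1 uninjected cell. After thinning *Ube2e2* was at -0.62, and without the highest cells at -0.13. With median-ratio size factors *Ube2e2* was at -0.71 and *Ube2w* at -0.44, both beyond 0.3 lower, while *Ube2d3* and *Ube2e3* were each at -0.26. *Ube2d3*, of the broadly used *Ube2d* group, had 32 and 2 counts and a log-fold of -0.14. *Ube2d2a* had 25 counts in 8 uninjected cells and none in GSK-J4-treated cells. It was in 9.76% of uninjected cells, under the limit, and 18 of the 25 counts came from 1 cell. Its log-fold was -0.29, and -0.04 without the highest cells. *Ube2h* had 147 counts in 22 uninjected cells, 91 of them in 1 cell, and 39 counts in 20 GSK-J4-treated cells. Its log-fold was 0.26, and -0.14 with median-ratio size factors. *Ube2r2*, an E2 of cullin ligases, had 21 and 9 counts and a log-fold of 0.24. *Ube2k* and *Ube2l3* had log-folds of -0.18 each.

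Of the proteases, *Usp1* and *Usp33* had the most counts in each library, without division by gene length. *Usp1*, which acts with Wdr48 on the DNA repair proteins FANCD2 and PCNA, had 432 counts in 54 uninjected cells (65.9%) and 105 in 25 GSK-J4-treated cells (39.1%). The log-fold was 0.29 and the fold 1.30 (1.04 to 1.61). In the uninjected library 163 of the counts and in the GSK-J4-treated library 68 of the counts came from 1 cell each, and without these cells the log-fold was -0.05 and the fold 0.73 (0.50 to 1.03). With median-ratio size factors it was -0.26. *Usp33*, a protease of the receptor and centrosome pathways, had 234 counts in 43 uninjected cells (52.4%) and 77 in 23 GSK-J4-treated cells (35.9%). Its log-fold was 0.19 and its fold 1.76 (1.34 to 2.28), and 37 of the 77 counts lay in 1 cell. Without the highest cells the log-fold was 0.03 and the fold 1.12 (0.78 to 1.58). Exons of *Usp33* overlap unconfirmed transcripts on the other strand, and no source used here says whether counting was by strand. *Usp37*, linked to the S phase of the cell cycle, had 201 counts in 33 uninjected cells but 27 in 11 GSK-J4-treated cells. The log-fold was -0.23, with values of 0.17 and -0.79 on the 2 sides of the plates.

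**Figure D4:**
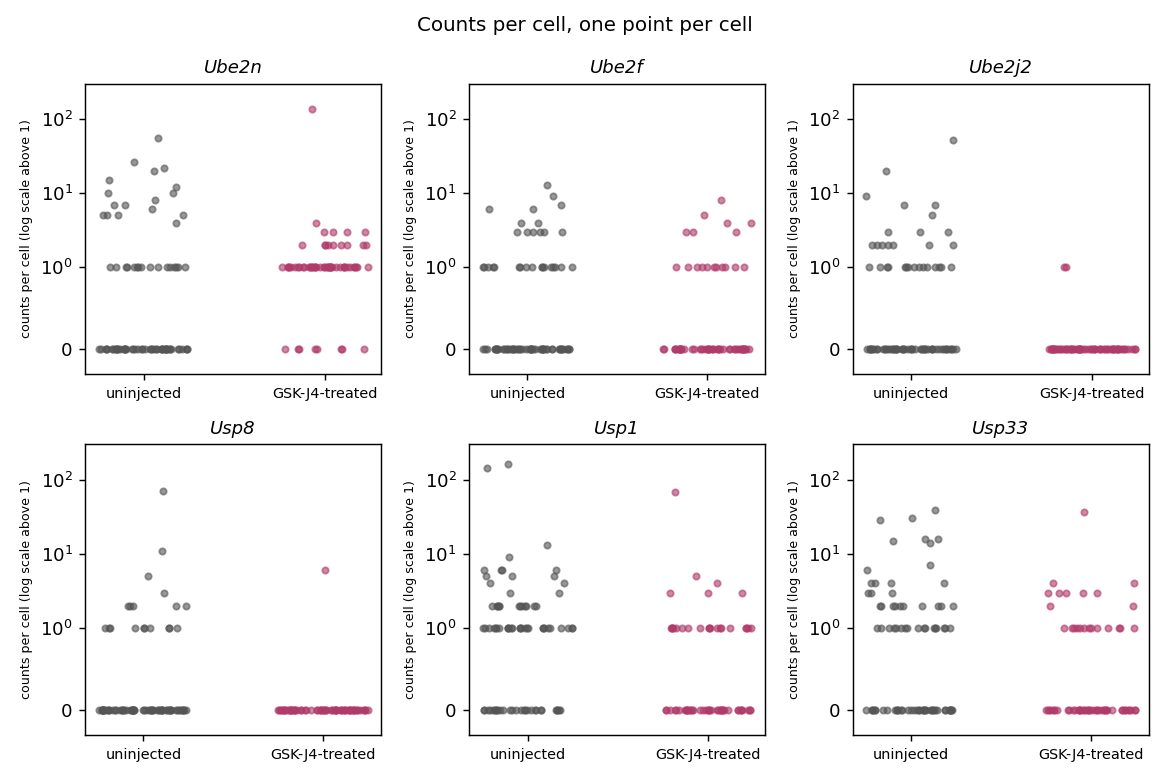
Counts per cell of 6 members, 1 point per cell and spread sideways for clarity, in uninjected (grey) and GSK-J4-treated cells (red), on an axis that is linear up to 1 count and logarithmic above. Most GSK-J4-treated cells hold 1 count of *Ube2n* and 1 holds 137, while *Ube2j2* was in 2 and *Usp8* in 1 of the GSK-J4-treated cells.

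Lower beyond 0.3 were *Usp8*, *Usp14* and *Usp28*. *Usp8*, which removes ubiquitin from receptors at endosomes, had 110 counts in 19 uninjected cells, 71 of them in 1 cell, and 6 counts that all lay in 1 GSK-J4-treated cell. The log-fold was -0.47 and the fold 0.29 (0.10 to 0.65), and the log-fold was -0.30 without the highest cells. *Usp14*, the protease bound to the proteasome, had 38 counts in 16 and 3 counts in 3 cells, with a log-fold of -0.45 and a fold of 0.42 (0.08 to 1.33). The log-fold was -0.09 without the highest cells and -0.01 with a minimum of 500 genes per cell, both within the limit. An uninjected cell of 1408 counts in all held 7 of the 38, or 49.7 scaled counts. Its exons share 2169 bases with *Thoc1* on the other strand, and reads from that stretch cannot be assigned to either gene without strand. *Usp28*, a protease of the DNA damage response and of Myc turnover, had 52 counts in 23 and 12 counts in 6 cells. The log-fold was -0.57, yet the fold of summed counts was 1.23 (0.60 to 2.34), in the opposite direction. The log-fold was -0.21 without the highest cells and -0.06 with a minimum of 500 genes per cell, both within the limit. An uninjected cell of 990 counts in all held 10 of the 52, or 101 scaled counts.

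Higher beyond 0.3 were *Usp31*, *Usp25* and *Usp16*, all at low counts. *Usp31* had 9 counts in 4 uninjected cells, 6 of them in 1 cell, and 11 counts in 11 GSK-J4-treated cells (17.2%), 1 in each. The log-fold was 0.33 and the fold 6.52 (2.46 to 17.8). *Usp25*, the closest relative of *Usp28*, had 28 counts in 10 and 7 counts in 7 cells, with a log-fold of 0.32 and a fold of 1.33 (0.49 to 3.13), or 2.24 (0.70 to 6.20) without the highest cells. *Usp16*, which removes ubiquitin from histone H2A, had 20 counts in 8 and 9 in 7 cells, with a log-fold of 0.30 and a fold of 2.40 (0.96 to 5.52). With median-ratio size factors these log-folds were 0.23, -0.06 and 0.07. Without the highest cells they were 0.28, 0.24 and 0.24, all within the limit. Exons of *Usp16* share 192 bases with *Cct8* on the other strand.

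Apart from *Usp16*, the chromatin-linked proteases that met the 10% limit lay within 0.3 with cells scaled to 10000 counts. Removal of ubiquitin from H2A or H2B is a chromatin reaction distinct from demethylation of H3K27. Of 10 genes listed for such roles, 8 passed the filter and 4 met the 10% limit. *Usp3* had 200 and 35 counts and a log-fold of 0.17, *Usp7* 31 and 7 counts and 0.04, and *Usp21* 45 and 9 counts and -0.04. With median-ratio size factors *Usp3* was at -0.41, and *Usp21* was at 0.35 in columns 1 to 6 and -0.44 in columns 7 to 12. *Usp22*, the protease of the SAGA complex, had 5 and 2 counts. *Usp42* had no count in uninjected cells and 3 in GSK-J4-treated ones. Among proteases linked to signalling, *Usp10* had 152 and 27 counts and a log-fold of -0.17, and *Usp48* 114 and 17 counts and 0.14. With median-ratio size factors they were at -0.36 and -0.38, and after thinning *Usp10* was at -0.85, the lower member counted there, and *Usp48* at -0.04.

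Some values outside the naming rule were singled out after they were seen. *Ube2o*, a large enzyme with E2 and E3 activity, had 1 count in uninjected cells but 11 in 9 GSK-J4-treated cells (14.1%). The log-fold was 0.29 and the fold 58.7 (8.54 to 2527), an interval that shows how little 1 count fixes. *Usp50* had 62 and 6 counts and a log-fold of -0.30, and *Usp29* had 33 and 1 and -0.27, or -0.05 without the highest cells. *Usp54* reached 0.32 on 2 and 2 counts, under the 10% limit. *Usp39* encodes a splicing factor without peptidase activity, and *Usp6nl*, which matches the rule by name, encodes a Rab GTPase-activating protein and not a protease. *Usp17lc* and *Usp17ld* belong to a family of near-identical copies, and their counts are uncertain for that reason.

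Log-folds were also set beside gene length. Spearman's rho of the log-fold with the span of the gene was -0.11 over the 49 members and 0.32 over 7605 genes, and with exonic bases -0.03 and 0.36. Genes are not independent replicates and share both libraries, so these are descriptions. The median span was 53.0 kb for the members and 26.7 kb for all genes.

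Within the uninjected library, many members had their counts mainly on 1 side of the plate. Columns 1 to 6 held 39 cells with 546722 counts and columns 7 to 12 held 43 cells with 566702 counts. Of the 45 members in at least 10% of uninjected cells, 15 (33.3%) had at least 80% of their counts on 1 side, beside 26.4% of 6783 genes. The counts were mainly in columns 1 to 6 for 11 and in columns 7 to 12 for 4. *Usp39* had 38 counts in 10 cells of columns 1 to 6 and none in columns 7 to 12, and *Usp29* had 33 counts in 9 cells and none. *Ube2h* had 140 and 7 counts, *Ube2v2* 47 and 3, and *Usp2* 70 and 6. *Usp32* went the other way with 1 and 43 counts, *Usp8* with 6 and 104, and *Usp15* with 6 and 80. The sides cannot be told apart from whatever else differed between the wells, and no treatment separates them. Concentration in single cells was common too, as 7 of the 45 members (15.6%) had at least 50% of their uninjected counts in 1 cell, beside 12.5% of all genes. Among the members named above, *Ube2w* had a log-fold of -0.72 in columns 1 to 6 and -0.02 in columns 7 to 12, and *Usp8* of -0.07 and -0.69.

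**Figure D5:**
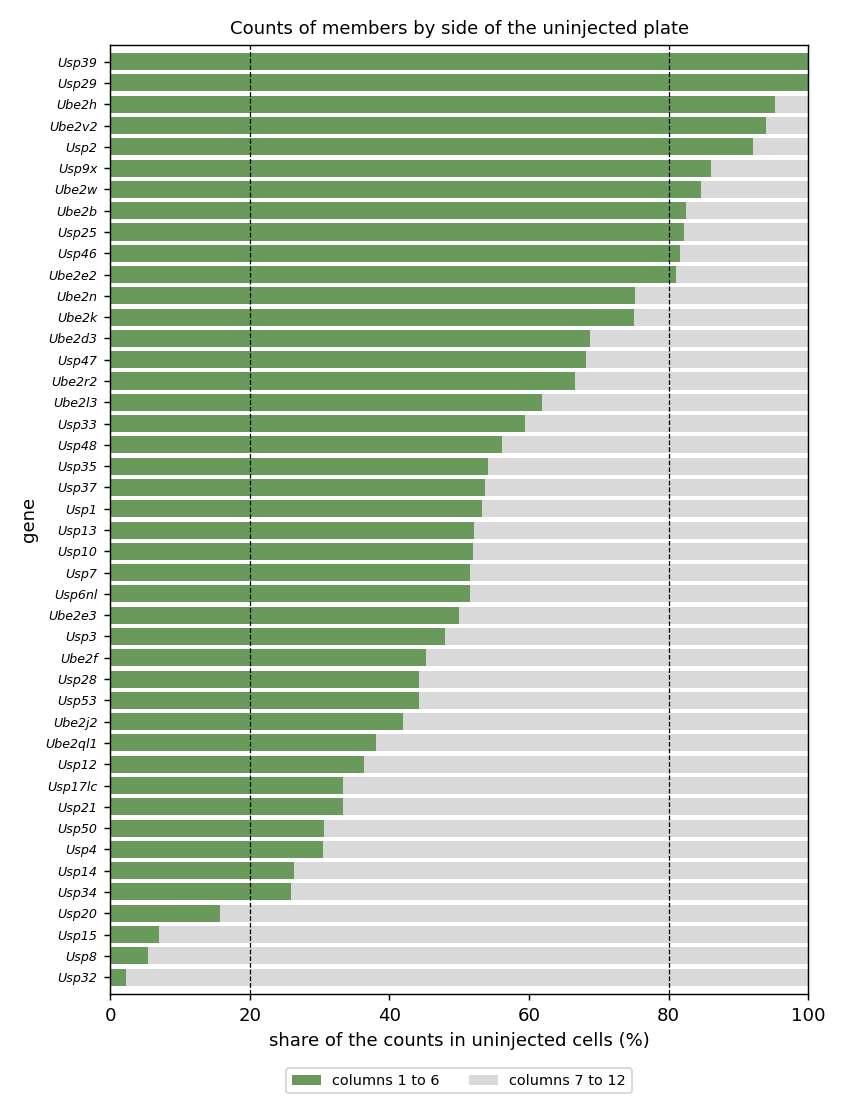
Percent of the counts of each member in columns 1 to 6 (green) and 7 to 12 (grey) of the uninjected plate, for members in at least 10% of uninjected cells, with dashed lines at 20% and 80%. *Usp39* and *Usp29* have all counts on 1 side, and *Usp32* has 97.7% on the other.

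*Ubb* and *Rps27a*, which encode ubiquitin itself, had far fewer counts in GSK-J4-treated cells and lower log-folds than any member. *Ubb*, which encodes a chain of ubiquitin units, had 608 counts (561 to 658) in 79 of 82 uninjected cells and 1 count in GSK-J4-treated cells, a log-fold of -2.01. *Rps27a*, which encodes ubiquitin fused to a ribosomal protein, had 379 and 1 counts and a log-fold of -1.80. Of 62 other genes of the ubiquitin system listed by name, 56 passed the filter, 38 met the 10% limit, and 13 of these (34.2%) were lower and 4 (10.5%) higher beyond 0.3, with a median of -0.17. Over all genes 24% were lower and 20.4% higher, with a median of -0.005. Of 5 E1 genes that met the limit, 1 was lower, *Nae1* of the NEDD8 pathway, with 84 and 1 counts and a log-fold of -0.32.

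Lowest after *Ubb* and *Rps27a* were *Tsg101* and *Psmd14*. *Tsg101*, an inactive E2 variant of the endosomal ESCRT machinery, had 511 counts in 53 uninjected cells and none in GSK-J4-treated cells, a log-fold of -1.49, and was at least 31.9-fold lower, taking a floor of 3 counts for a library without any. *Psmd14*, the protease of the proteasome lid, had 156 counts and 0, a log-fold of -1.34, and was at least 9.74-fold lower. The 4 highest were other proteases. *Cyld*, which cuts K63-linked chains such as those built with *Ube2n*, had 285 and 473 counts and a log-fold of 2.09, or 1.03 without the highest cells. *Yod1* had 11 and 14 counts and 0.70, *Mysm1*, which acts on histone H2A, 145 and 43 counts and 0.31, and the SUMO protease *Senp1* 185 and 42 counts and 0.30. With median-ratio size factors *Cyld* was at 1.41, *Yod1* at 0.28, *Mysm1* at -0.07 and *Senp1* at -0.25, so only *Cyld* stayed beyond 0.3.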

How the data were processed

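The authors deposited whole-number counts per gene and cell without normalization. Reads had been aligned in CLC Genomics Workbench v.20 and collapsed by mapping position and a UMI of 8 nt. Genes of Gencode M17 were then counted by featureCounts, and the counts from both transcript ends added up. The labels name the genome GRCh38, a human build number. Positions here are GENCODE vM21 on GRCm38. Handling of reads with several positions is not given in the sources used here. Doublets were not called, and no batch correction was applied.

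Members were the symbols matching the stated rule. Named genes were members beyond 0.3 log-fold with a count in 10% of the cells of either library, the 5 with the most counts in each library, and the 4 lowest and 4 highest other ubiquitin genes beyond 0.3. Members, lists and rules were chosen with earlier results of these data known. Calculations used scipy 1.17.1, numpy 2.4.6 and pandas 2.3.3 under Python 3.11.15. Cells were thinned to 867 counts, the 10th percentile, leaving out 1 uninjected and 14 GSK-J4-treated cells. On counts simulated for 15947 genes with 200 changed, the direction was right for 195. The simulated cells of a library shared the same profile, without the concentration of counts in single cells seen here. Only genes above a set level of pooled counts were changed. The result therefore does not cover members with few counts or with counts mainly in 1 cell. A few of the genes analysed are left out of the text and the plots by gene.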

Additional observations from a re-analysis of the deposited data

How the results depend on the processing

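Of the 12 members beyond 0.3 log-fold, 9 kept their direction under every alternative run, and 4 of 108 recomputed values changed sign. *Usp28* was at 0.071 with summed libraries and 0.13 in columns 1 to 6, *Usp14* at 0.082 in columns 1 to 6, and *Usp25* at -0.065 with median-ratio size factors, and the cause was not tested. The counts of members lower and higher were 6 and 6 as reported. The number lower was 1 of 7 members after thinning and 3 of 18 with a count in at least 25% of cells. It was 14 of 49 with median-ratio size factors, 3 of 49 with summed libraries and 20 of 49 with a pseudocount of 0.1. In columns 1 to 6 it was 13 of 46 and in columns 7 to 12 it was 13 of 50. The number higher was 2 of 18 with the 25% limit and 2 of 49 with median-ratio size factors. With the pseudocount of 0.1 it was 15 of 49, and in columns 7 to 12 it was 12 of 50. Shares over all genes are given above for median-ratio size factors and for thinning. They were not worked out for the other alternatives, so those counts have no background. The median of the members was 0.36 after thinning, over 7 members, against 0.25 for all genes. That of *Ube2* genes was 0.85 after thinning, over 2 genes, -0.31 with the pseudocount of 0.1 and -0.30 in columns 1 to 6. The median of all genes was -0.02 with that pseudocount and -0.05 in those columns. A pseudocount of 1 understates the change of low genes. No paired analysis was possible because there was 1 library per condition, and leaving out a replicate was not possible for the same reason. With 9 counts of the median member in GSK-J4-treated cells, depth limited most comparisons.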
